A study of Mus musculus with 3 samples.

Results

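The 34 imprinted genes described here were chosen by name, as rows of the deposited count table whose gene symbol is on a list of imprinted genes, without use of any measured value. All 34 were found once each among the 55421 named genes of the table, and they fall into 17 imprinted clusters or single loci. By textbook assignment, 11 are expressed from the maternal allele, 21 from the paternal allele, and 2 (*Ube3a* and *Gnas*) from 1 or both alleles depending on the tissue. The genes were measured by RNA-seq of polyA RNA in 3 libraries (replicates 1, 2, and 3) of ALSCs, mouse stem cells that were derived from the epiblast of embryos at embryonic day 6.5. The embryos came from ICR females mated with GOF/GFP males, whose transgene is an *Oct4* reporter lacking the proximal enhancer, and the cells were grown in N2B27 medium with Activin A and LIF. All 3 libraries belong to this 1 condition, so the levels are described and no groups are compared. The paper calls such samples biological replicates, but neither it nor the labels say whether these libraries came from separate cultures or lines, so their spread may be in part technical. The counts do not separate the alleles, so "maternal" and "paternal" name the known expressed allele and not a measurement.

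Imprinted genes are expressed only or mostly from the copy of 1 parent. At most of them this depends on DNA methylation of a control region, set in the egg or the sperm. That methylation is kept through the demethylation of the early embryo. Most imprinted genes lie in clusters, in which such a control region governs protein-coding genes together with a long noncoding RNA. Many maternally expressed members restrain growth, many paternally expressed members promote it, and their expression is known to drift in cultured pluripotent cells.

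The libraries held 18088505, 18724038, and 18037342 counts on named genes in replicates 1, 2, and 3. FPKM (fragments per kilobase of gene length, scaled to the library total) was computed from the deposited counts, and 3 counts in a library was taken as the limit that a count of 0 allows. On a gene of 1 kb, 3 counts were worth 0.160 to 0.166 FPKM. All 10 pluripotent epiblast markers reached 1 FPKM in every library, with a summed level of 1994 to 2053 FPKM. The 10 trophoblast markers summed to 2.72 to 3.25 FPKM, and 6 of them, among them *Cdx2* and *Elf5*, did not pass 3 counts in any library. Of that list 1 gene, *Eomes*, reached 1 FPKM throughout (mean 1.32 FPKM). Extraembryonic endoderm markers summed to 2.96 to 4.04 FPKM. Of these 10, *Foxa2* (1.96, 1.37, and 2.55 FPKM) was at 1 FPKM or more in every library, 4 more were above 3 counts in each, and *Gata4*, *Ttr*, *Afp*, and *Apoa1* were in none. Fibroblast markers summed to 12.6 to 14.2 FPKM, with *Dcn* and *Lum* at 0 and with *Thy1* (6.88 FPKM), *Col1a1* (5.04 FPKM), and *Fbln2* (1.22 FPKM) at 1 FPKM or more in every library. The part that cells of these kinds have in the levels below was not tested. In replicate 1 long genes had fewer counts, and short genes more, than in replicates 2 and 3.

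In ALSCs, 21 of the 34 imprinted genes were expressed at 1 FPKM or more in every library, which is 61.8%, beside 45.7% of all protein-coding genes and 20.1% of all named genes. Another 8 were above 3 counts in every library without reaching 1 FPKM in all of them, which makes 29 detected genes. *H19* and *Nnat* passed 3 counts in some libraries, and *Airn*, *Dlk1*, and *Rtl1* passed it in none. Without replicate 1 the number detected was 30 and the number at 1 FPKM or more was still 21. The median of the 34 mean levels was 3.67 FPKM. Among the 21 expressed members it was 6.63 FPKM, and among all 11125 genes at 1 FPKM or more it was 8.21 FPKM.

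**Figure D1:**
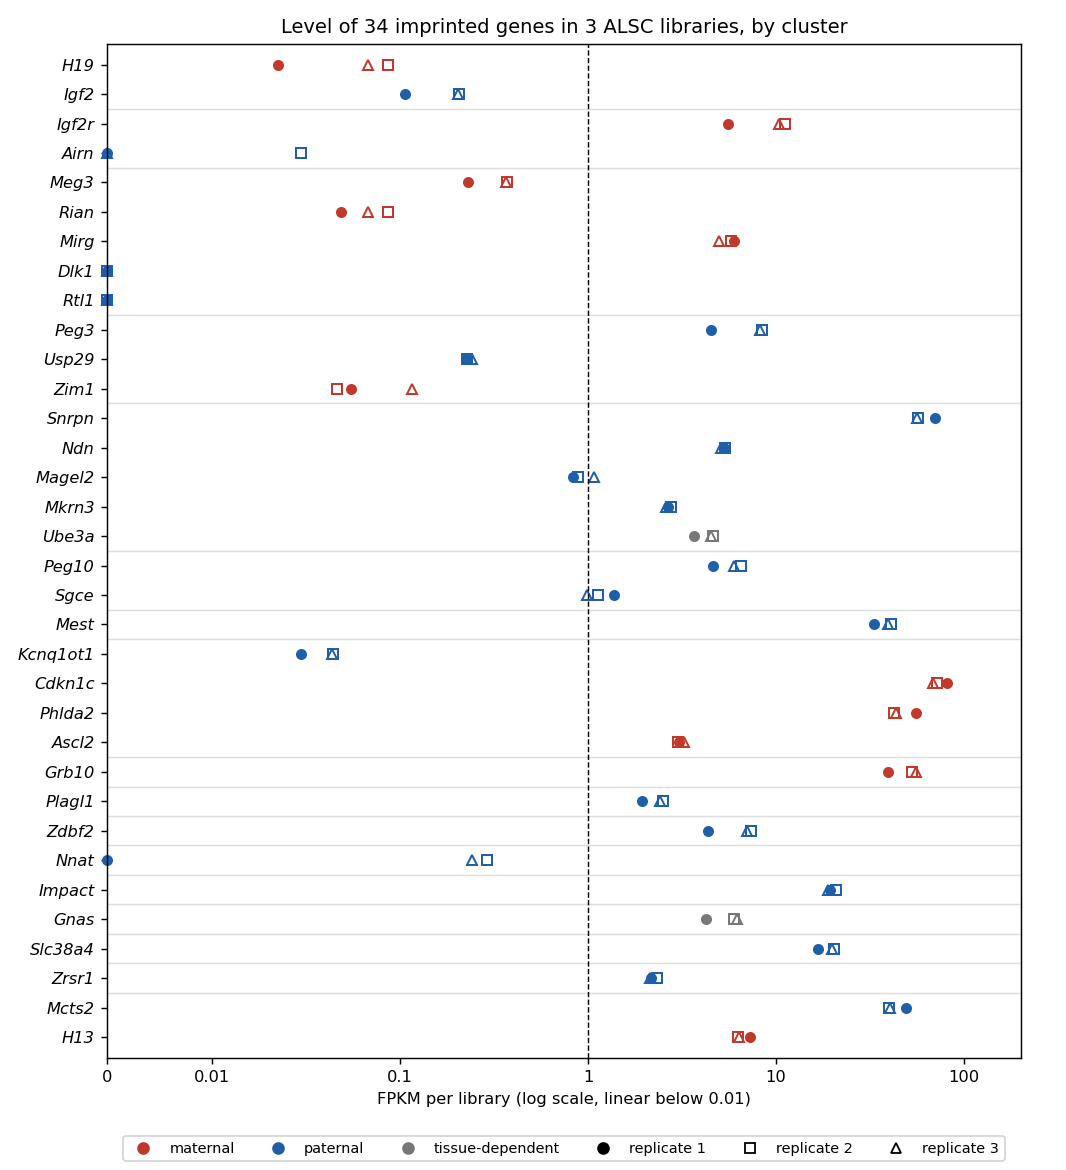
Level of each of the 34 imprinted genes in FPKM (x axis, log scale, linear below 0.01), with 1 row per gene, grouped by cluster between the grey lines. Filled circles, open squares, and open triangles are replicates 1, 2, and 3, red marks maternally and blue paternally expressed genes, and the dashed line stands at 1 FPKM. *Cdkn1c*, *Snrpn*, *Grb10*, *Phlda2*, *Mcts2*, and *Mest* lie at 33.1 FPKM or more, and *Dlk1* and *Rtl1* lie at 0 in all libraries.

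By mean level the 4 most abundant members were *Cdkn1c*, *Snrpn*, *Grb10*, and *Phlda2*, followed by *Mcts2* and *Mest*. *Cdkn1c*, which encodes an inhibitor of cyclin-dependent kinases (chr7:143458339-143461050), was the highest, with 80.7, 71.3, and 68.4 FPKM in replicates 1, 2, and 3 (73.5 ± 6.44, SD, n = 3). Its mean exceeded that of 92.7% of all expressed genes. *Phlda2*, a pleckstrin homology-like protein that limits placental growth, lies in the same cluster on chromosome 7 and had 55.4, 42.6, and 43.3 FPKM. *Grb10*, an adaptor that dampens signaling from insulin and IGF receptors (chr11:11930508-12038683), had 39.4, 52.7, and 55.5 FPKM. *Cdkn1c* was above *Snrpn* in each of the 3 libraries. The order of *Grb10*, *Phlda2*, and *Mcts2* changed between libraries, with *Grb10* the lowest of them in replicate 1 and the highest in replicates 2 and 3. Exons of *Gm44732* cover 30.7% of the exon bases of *Cdkn1c* on the opposite strand, and *Gm44732* had 1, 2, and 0 counts. How reads over both genes were counted is not given in the sources used here, so the level of *Cdkn1c* is uncertain to that extent.

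The noncoding partner of *Cdkn1c* was far lower. *Kcnq1ot1*, the paternal noncoding RNA whose transcription silences the cluster in cis, had 50, 77, and 73 counts over 93092 bases, or 0.0297, 0.0442, and 0.0435 FPKM. Per length, *Cdkn1c* was 1876-fold above it over the pooled counts (95% counting interval 1630 to 2169). *Ascl2*, a basic helix-loop-helix factor of the trophoblast lineage from the same cluster, was far below *Cdkn1c* with 3.03, 3.03, and 3.25 FPKM. The 3 libraries hardly differed in *Ascl2*, while *Cdkn1c* and *Phlda2* were both highest in replicate 1.

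The ligand of the IGF axis was almost silent while its clearance receptor was expressed. *Igf2*, a growth factor of the fetus, had 11, 22, and 21 counts (0.106, 0.205, and 0.203 FPKM), and *H19*, the maternal noncoding RNA next to it, had 1, 4, and 3 counts. Per length, *Igf2* was 2.90-fold above *H19*, with a wide counting interval of 1.37 to 7.06 because *H19* gave only 8 counts in all. When the longest coding *Igf2* transcript was cut into 50-base words, 24.1% of them occurred in no other gene, most of the rest being shared with the overlapping gene *Gm49394*, which had 0 counts in every library. How reads matching both genes were counted is not given in the sources used here, so the low level of *Igf2* is uncertain. *Igf2r*, the receptor that carries Igf2 to the lysosome (chr17:12682406-12769664), had 938, 1937, and 1748 counts, or 5.57, 11.1, and 10.4 FPKM. Its antisense partner *Airn*, which silences the paternal *Igf2r*, had 0, 2, and 0 counts. The 4623 counts of *Igf2r* against 2 of *Airn* gave a ratio per length of 893, with a counting interval of 247 to 7378. Both counts of *Airn* came from replicate 2, and without that library *Igf2r* was at least 173-fold higher, taking 3 counts in each library as the limit, while without replicate 3 the ratio was 556. The table gives *Airn* 3597 bases of exon over a span of 118826 bases, so transcription outside these exons was not counted.

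Within the *Dlk1*-*Dio3* cluster on chromosome 12, *Mirg* was the only member of 5 at 1 FPKM or more. *Mirg*, the maternal host of microRNAs at the far end of the cluster (chr12:109729764-109749460), had 787, 782, and 657 counts, or 5.97, 5.73, and 5.0 FPKM. *Meg3*, the maternal long noncoding RNA at the near end, had 0.229, 0.369, and 0.368 FPKM, and *Rian*, the host of small nucleolar RNAs between them, had 0.0484, 0.0868, and 0.0676 FPKM. *Meg3*, *Rian*, and *Mirg* lie on the same strand and are often described as parts of 1 long transcript. Here *Mirg* was above *Meg3* by 26.0-, 15.5-, and 13.6-fold per length in replicates 1, 2, and 3, and above *Rian* by 123-, 66.0-, and 73.9-fold. The length given for *Rian*, 31981 bases, exceeds the 18234 exon bases of GENCODE M21. With the latter, *Mirg* was 46.8-fold above *Rian* over the pooled counts, and with the former 82.0-fold. The paternal genes *Dlk1*, a membrane protein with EGF-like repeats, and *Rtl1*, a gene derived from a retrotransposon, had 0 counts in every library. A level of up to 0.0294 FPKM for *Dlk1* and 0.0262 FPKM for *Rtl1* is compatible with these zeros. *Meg3*, with 320 counts in all, was at least 11.1-fold higher per length than *Dlk1*, taking 3 counts in each library as the limit. *Dio3*, the deiodinase gene that closes the cluster, had 0, 1, and 2 counts.

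**Figure D2:**
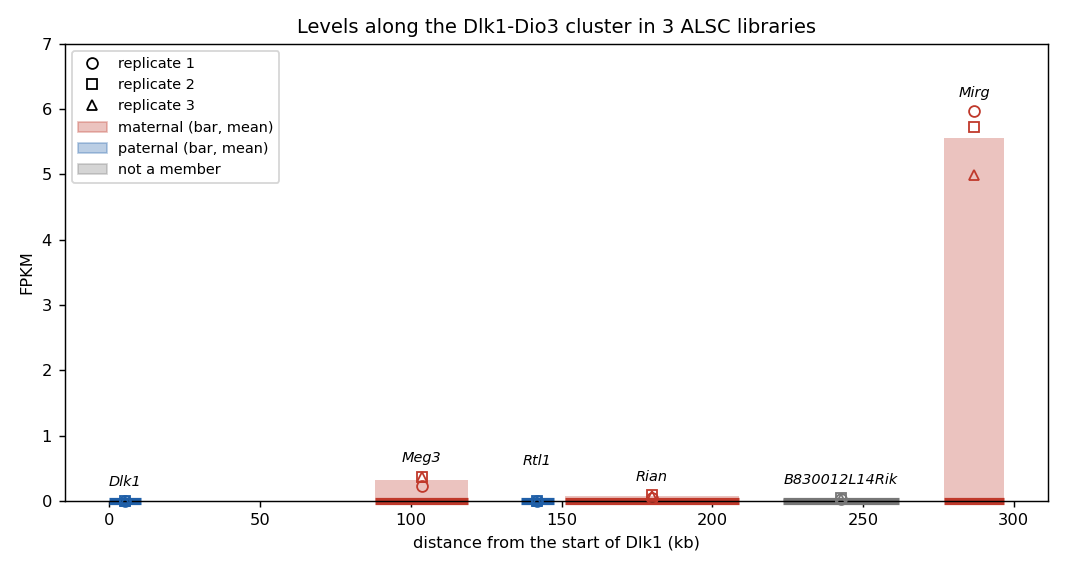
Level in FPKM (y axis) of genes along the *Dlk1*-*Dio3* cluster, by distance in kb from the start of *Dlk1* (x axis). Bars show the mean of the 3 libraries over the span of each gene, circles, squares, and triangles are replicates 1, 2, and 3, and *B830012L14Rik* is shown for its position only. *Mirg* stands at 5.0 to 5.97 FPKM, and every other gene drawn stays at or under 0.369 FPKM.

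The *Mirg* span holds 26 mature microRNA sequences from 14 hairpin genes of the RefSeq table (GRCm38.p6), with 25 distinct seeds. Only 8 of the 26 lie inside an exon of *Mirg* in GENCODE M21, and the rest do not. Mature microRNAs carry no polyA tail and were not measured, so *Mirg* reports on the host transcript alone. Only some of the 26 sequences are printed here, as examples from the span of the only expressed member of the cluster. The seed (bases 2 to 8) is in capitals, and the lines do not mark which of them lie inside an exon. The pair that shares a seed is given on the top lines, followed by others in order along the span.
mmu-miR-453: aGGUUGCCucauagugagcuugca
mmu-miR-496a-5p: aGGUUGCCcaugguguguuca
mmu-miR-382-5p: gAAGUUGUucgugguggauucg
mmu-miR-134-5p: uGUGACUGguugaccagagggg
mmu-miR-154-3p: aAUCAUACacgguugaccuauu
mmu-miR-377-3p: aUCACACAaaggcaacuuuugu
mmu-miR-369-3p: aAUAAUACaugguugaucuuu
mmu-miR-410-3p: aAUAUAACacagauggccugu

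In the *Peg3* cluster 1 gene of 3 was expressed. *Peg3*, a paternally expressed zinc finger protein (chr7:6703892-6730431, minus strand), had 1104, 2137, and 2009 counts, or 4.48, 8.38, and 8.18 FPKM. *Usp29*, a ubiquitin protease family member that is paternally expressed from the opposite strand (chr7:6730578-6967219), had 73, 77, and 79 counts, or 0.223, 0.227, and 0.242 FPKM. *Peg3* therefore exceeded *Usp29* by 20.1-, 36.8-, and 33.8-fold per length in the 3 libraries. The maternally expressed zinc finger gene *Zim1* had 8, 7, and 17 counts, and *Peg3* was 97.4-fold above it (68.9 to 143). Of the 50-base words of *Usp29*, 66.2% were unique, with *Zim3* as the gene that shares most of the others.

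The starts of *Peg3* and *Usp29* in the table are separated by 146 bases, chr7:6730432-6730577 of GRCm38. The stretch is printed below on the plus strand from the RefSeq promoter table because genes of such different level start at its ends. It holds 5 CpG and no copy of the hexamer TGCCGC on either strand, the core of the motif bound by ZFP57 at methylated imprinted regions.
*Peg3*-*Usp29* start region: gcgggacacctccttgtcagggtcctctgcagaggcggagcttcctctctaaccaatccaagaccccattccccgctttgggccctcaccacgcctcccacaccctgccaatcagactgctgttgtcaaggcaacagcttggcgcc

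Of the 5 genes of the *Snrpn*-*Ube3a* region on chromosome 7, 4 were at 1 FPKM or more, and their levels spanned a wide range. *Snrpn*, a paternally expressed spliceosomal protein (chr7:59982495-60140219), had 69.9, 57.0, and 56.3 FPKM (61.1 ± 7.66). The MAGE family gene *Ndn* had 5.27, 5.32, and 5.10 FPKM, and the makorin RING finger gene *Mkrn3* had 2.67, 2.75, and 2.59 FPKM. *Magel2*, the other MAGE family gene, had 0.836, 0.888, and 1.08 FPKM and so fell on both sides of 1 FPKM. *Ndn* and *Mkrn3* had the smallest spread of the expressed members, with coefficients of variation of 2.17% and 2.93%. *Ube3a*, a ubiquitin ligase whose paternal allele is silenced in neurons, had 3.65, 4.59, and 4.48 FPKM. Of the 50-base words of *Snrpn*, 73.8% were unique, and of *Ube3a* 72.6%. The table's *Snurf*, which lies inside *Snrpn*, had 0 counts throughout, so the level of *Snrpn* may include reads of *Snurf*. *Gm38393*, on the same strand, shares 20.6% of the words of *Snrpn* and had 235, 784, and 700 counts. How reads matching both were counted is not given, so the level and spread of *Snrpn* are uncertain. The kit's strand setting in counting is not given in the sources used here, and reads of *Ube3a* cannot be told apart from those of *Snhg14*, its antisense transcript, over the exon bases they share.

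*Peg10* and *Sgce*, paternally expressed genes whose starts are separated by 98 bases on opposite strands of chromosome 6, differed less than *Peg3* and *Usp29*. *Peg10*, derived from a retrotransposon and needed for the placenta, had 4.64, 6.49, and 5.97 FPKM, and *Sgce*, the epsilon sarcoglycan, had 1.38, 1.13, and 0.982 FPKM. The ratio per length was 3.38, 5.73, and 6.08. *Sgce* was highest and *Peg10* lowest in replicate 1, so the library with the smallest ratio is also the one that stands apart by gene length.

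*Mest*, a paternally expressed protein with a hydrolase fold (chr6:30723547-30748465), had 33.1, 41.0, and 39.2 FPKM (37.8 ± 4.15). Exons of *Copg2* cover 23.1% of the exon bases of *Mest* on the opposite strand, and reads from them cannot be told apart. *Copg2* itself had 16.6, 16.8, and 18.1 FPKM. The region before the second of the *Mest* starts in RefSeq, chr6:30737800-30738049 of GRCm38.p6 on the plus strand, is printed with the ZFP57 hexamer in capitals, since it holds 2 copies, both on the reverse strand.
*Mest* promoter: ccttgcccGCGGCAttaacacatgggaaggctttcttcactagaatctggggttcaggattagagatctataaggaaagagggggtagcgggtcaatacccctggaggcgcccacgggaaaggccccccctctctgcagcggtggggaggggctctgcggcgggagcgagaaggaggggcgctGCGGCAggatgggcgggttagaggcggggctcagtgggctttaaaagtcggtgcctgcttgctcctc

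Retrogenes copied from the X chromosome into an intron of a host are a known route to imprinting, and both retrogenes of the list were expressed. *Mcts2*, a paternally expressed copy of *Mcts1* (chr2:152687035-152687946), lies within the host gene *H13*, a signal peptide peptidase. *Mcts2* had 49.0, 40.0, and 40.1 FPKM and *H13* had 7.28, 6.25, and 6.35 FPKM, a ratio per length of 6.74, 6.40, and 6.32 that varied little (6.48 ± 0.223). The parent *Mcts1* had 37.4, 26.8, and 26.7 FPKM, and *Mcts2* was 1.42-fold above it (1.34 to 1.51). Counts not divided by length would turn both orders, since *Mcts2* is given only 912 bases. *Zrsr1*, a paternally expressed splicing protein copied from *Zrsr2* into the host *Commd1*, had 2.17, 2.34, and 2.15 FPKM, which was 0.352 times the level of *Zrsr2* (0.320 to 0.386). Of the 50-base words of *Mcts2*, 99.3% were unique and of *Zrsr1* 92.9%, but a read that differs from the parent by a few bases may still be placed on either copy, so these levels are uncertain. The sequence before *Mcts2*, chr2:152686898-152687034 of GRCm38.p6 on the plus strand, is printed up to the start of the gene, with 1 copy of the hexamer in capitals.
*Mcts2* promoter: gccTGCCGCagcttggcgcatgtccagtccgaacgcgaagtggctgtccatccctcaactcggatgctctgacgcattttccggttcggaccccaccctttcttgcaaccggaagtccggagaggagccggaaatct

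The genes that are the only member of their locus on the list were at 1 FPKM or more in every library, with the exception of *Nnat*. *Impact*, an inhibitor of the kinase that senses amino acid shortage, had 19.3, 20.8, and 18.9 FPKM. *Slc38a4*, an amino acid transporter, had 16.6, 20.3, and 19.8 FPKM. Both are paternally expressed, and the level of *Impact* exceeded that of 73.9% and *Slc38a4* that of 72.8% of all expressed genes. *Zdbf2*, a zinc finger protein whose imprint depends on an upstream transcript of the embryo, had 4.36, 7.32, and 6.99 FPKM, with replicate 1 clearly lowest. *Gnas*, the gene of the stimulatory G protein alpha subunit, had 4.25, 5.95, and 6.23 FPKM, and 22.0% of its exon bases are shared with antisense transcripts. The counts of *Gnas* pool transcripts from several starts. *Plagl1*, a zinc finger factor linked to growth, had 1.94, 2.49, and 2.42 FPKM. *Nnat*, a small membrane protein of the nervous system, had 0, 10, and 8 counts, so replicate 1 was under the limit of 0.0907 FPKM and the others stood at 0.292 and 0.242 FPKM.

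**Figure D3:**
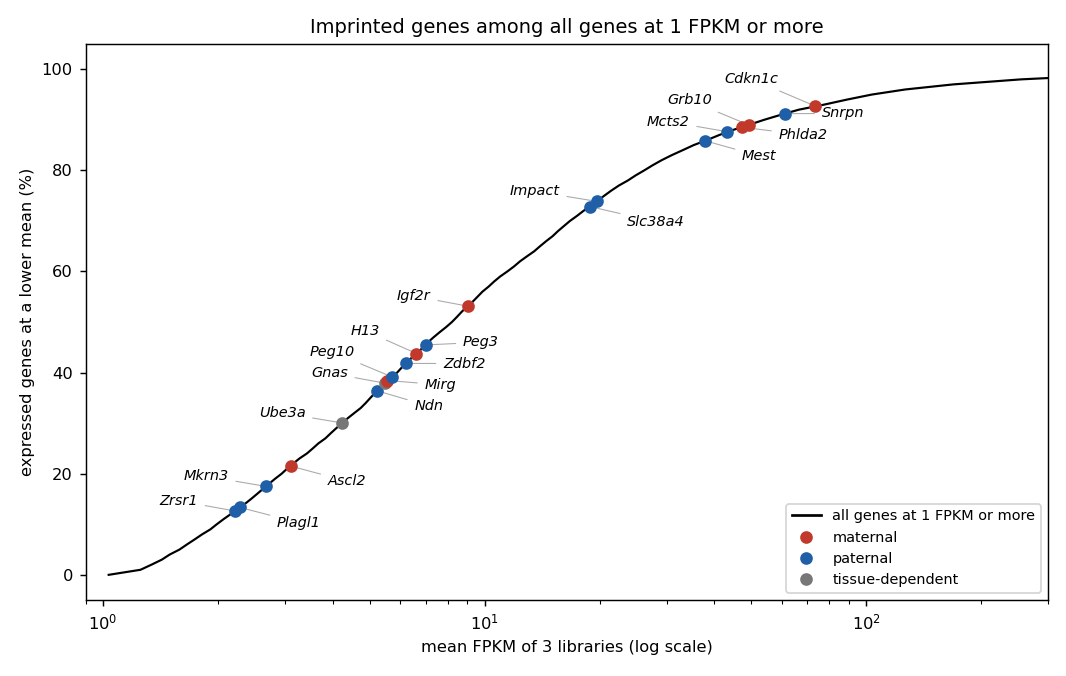
Share of all genes at 1 FPKM or more that had a lower mean level (y axis, %) against the mean FPKM of the 3 libraries (x axis, log scale), as a black line, with the 21 expressed imprinted genes as points on it, red for maternal, blue for paternal, and grey for tissue-dependent. They extend from 12.6% for *Zrsr1* to 92.7% for *Cdkn1c*.

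Taken by allele, 7 of the 11 maternally expressed genes and 12 of the 21 paternally expressed genes were at 1 FPKM or more, and both tissue-dependent genes were. The summed level was 193 to 198 FPKM for the maternal group and 210 to 217 FPKM for the paternal group. These sums depend on which genes are listed and on a few high members. The highest means were *Cdkn1c* (73.5), *Grb10* (49.2), and *Phlda2* (47.1 FPKM) in the maternal group. In the paternal group they were *Snrpn* (61.1), *Mcts2* (43.1), and *Mest* (37.8 FPKM). A balance between the alleles was not measured. Of 28 coding genes 20 reached 1 FPKM, beside 45.7% of all protein-coding genes, and of 6 noncoding genes only *Mirg* did, beside 3.29% of the 33495 named genes that are not protein-coding. The noncoding members other than *Mirg* had means from 0.00990 FPKM for *Airn* to 0.322 FPKM for *Meg3*.

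Promoter windows of 250 bases before to 50 bases after a start were found in RefSeq for 28 of the 34 genes, in 44 windows. TGCCGC or its reverse complement was found in a window of 10 of the 28 genes (35.7%), beside 13.1% of 27025 genes in the table and 23.6% of the 8194 genes that were at 1 FPKM or more. Counted by window, 11 of 44 (25.0%) held it, beside 11.6% of all 32817 windows. By expression, 6 of 18 expressed members (33.3%) and 4 of 10 others (40.0%) held the hexamer. The median number of CpG in a gene's richest window was 17 for all members with a window, 22 for the expressed ones, 11.5 for the others, 8 for all genes, and 23 for all genes at 1 FPKM or more. Of the members, *Zdbf2* held the most copies, 3 in the window of its upstream start, and this stretch, chr1:63200108-63200312 of GRCm38.p6 on the plus strand, is printed up to the next exon, with the hexamers in capitals.
*Zdbf2* upstream promoter: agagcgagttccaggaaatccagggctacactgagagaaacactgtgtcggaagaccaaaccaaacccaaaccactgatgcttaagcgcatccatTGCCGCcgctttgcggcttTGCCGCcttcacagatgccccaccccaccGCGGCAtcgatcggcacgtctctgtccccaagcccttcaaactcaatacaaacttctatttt

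To see which members varied between the libraries, each gene's counts were tested for homogeneity against TMM library sizes (chi-square test over all genes with at least 10 counts in total, Benjamini-Hochberg adjustment, threshold 0.05). The test compares these libraries and covers counting error only. Of the 30 members tested, 18 varied, which is 60.0% beside 47.2% of all 16944 genes tested. Calls with replicate 1 the lowest made up 11 of the 30 members (36.7%, beside 22.1% of all genes tested), and calls with replicate 1 the highest made up 7 (23.3%, beside 22.2%). Between replicates 2 and 3 alone 1 of 30 members varied, beside 8.11% of all 16062 genes tested, and this gene was *Grb10* (adjusted p of the chi-square test 0.000344). Between replicates 1 and 2, 19 of 30 members passed, beside 46.7% of all 16026 genes tested. Between replicates 1 and 3, 17 of 29 did, beside 42.9% of 15923 genes. Of the 18, 16 passed both, in libraries that the call itself had used. The exceptions were *Mirg*, for which replicates 1 and 2 did not pass (adjusted p of the chi-square test 0.104), and *Nnat*, which had too few counts to be tested between replicates 1 and 3.

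Among the members that varied, *Nnat* had 0 counts in replicate 1. Apart from it, the 4 lowest ratios of replicate 1 to the others among them were in genes over 5000 bases. *Igf2r* stood in replicate 1 at 0.543 times the mean of replicates 2 and 3 on TMM-scaled counts, *Peg3* at 0.568 times, *Zdbf2* at 0.639 times, and *Meg3* at 0.654 times. *Igf2*, which did not pass the test, stood at 0.556 times. Of the 11 members over 5000 bases that varied, 8 were lowest in replicate 1, and of the 7 shorter ones 3 were. The same split was not made over all genes. Their median log2 ratio, given by length group below, was negative in long genes too, with -0.06 where the median length was 5197 bases. In the other direction, *Phlda2* stood at 1.35 times, *Snrpn* at 1.29 times, *Mcts2* at 1.28 times, and *Cdkn1c* at 1.21 times, and these are among the shortest members. The part that reads shared with *Gm38393* have in the ratio of *Snrpn* was not tested. Over all genes averaging 100 counts or more, the median log2 ratio of replicate 1 to the others fell with length, from 0.39 in the shortest of 20 length groups to -0.53 in the longest. The median over the members tested was -0.20 and, after the trend on length was removed, -0.08. *Cdkn1c* and *Mcts2* then lay at 0.00 and -0.03, while *Igf2r* stayed at -0.60.

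Among the long members that varied, 3 went against this trend. *Sgce*, with 10612 bases, stood in replicate 1 at 1.36 times the others, *H13* with 8884 bases at 1.21 times, and *Mirg* with 7292 bases at 1.17 times. After removal of the trend on length their log2 ratios were 0.79, 0.56, and 0.43. *Usp29*, with 18078 bases, did not pass the test (0.997 times, adjusted p of the chi-square test 0.916). *Peg3*, on the other side of the shared start region, stood in replicate 1 at -0.82 on the log2 scale. After removal of the trend on length, *Peg3* lay at -0.29 and *Usp29* at 0.52.

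**Figure D4:**
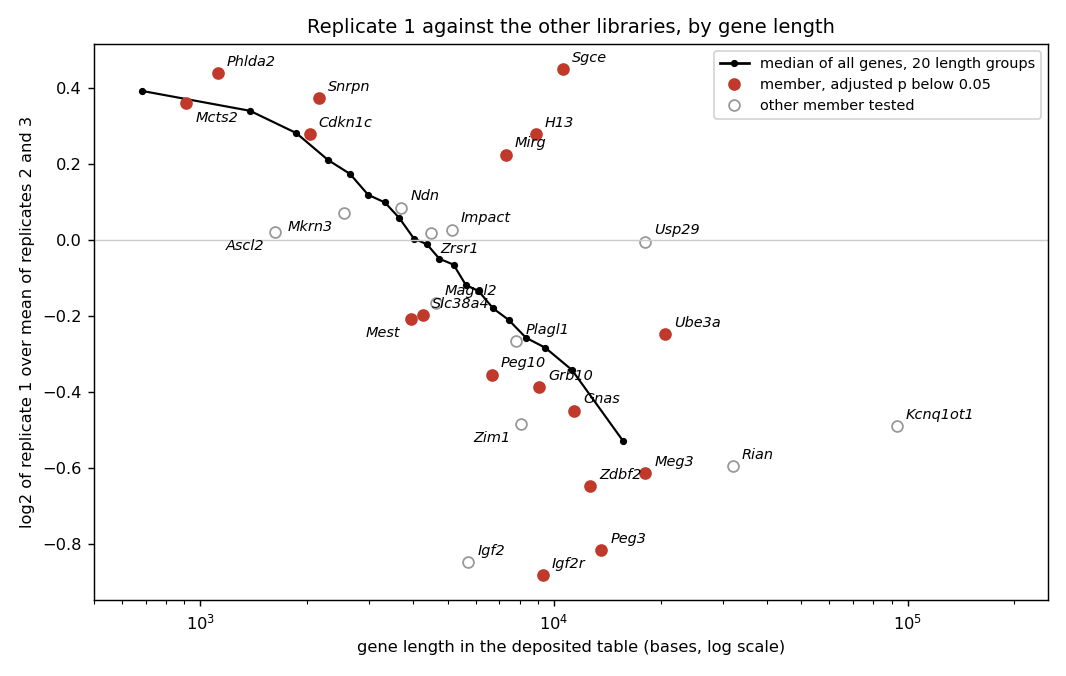
Log2 ratio of replicate 1 to the mean of replicates 2 and 3 on TMM-scaled counts (y axis) against gene length in bases (x axis, log scale) for the imprinted genes tested, red where the chi-square test passed, open grey where it did not. The black line joins the medians of all genes in 20 length groups, falling from 0.39 to -0.53, and *Nnat*, with 0 counts in replicate 1, is left out. *Igf2r*, *Igf2*, and *Peg3* lie lowest, and *Sgce*, *H13*, and *Mirg* lie above the line.

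Of 14 genes that set or keep imprints, 12 were at 1 FPKM or more in every library. *Trim28*, the corepressor that ZFP57 recruits, was highest with 235, 251, and 240 FPKM, followed by *Uhrf1*, which brings the maintenance methyltransferase to replicating DNA, with 80.7, 108, and 103 FPKM. *Dnmt1*, that methyltransferase, had 37.7, 56.5, and 54.6 FPKM, and *Ctcf*, the insulator protein that reads the imprint between *H19* and *Igf2*, had 24.9, 30.3, and 30.3 FPKM. The counts of 12 of the 14 (85.7%, beside 47.2% of all genes tested) varied between the 3 libraries. In 10 of the 14 they did so with replicate 1 the lowest, beside 22.1% of all genes tested. None passed the same chi-square test between replicates 2 and 3, where 8.11% of all genes tested did. The median log2 ratio of replicate 1 to the others over the 14 was -0.31 and, after the trend on length was removed, -0.08.

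Of 19 genes next to or hosting the members, 10 were at 1 FPKM or more, led by the histone chaperone *Nap1l4* with 77.0, 83.0, and 81.3 FPKM. *Cd81*, a tetraspanin, had 33.2, 30.6, and 29.3 FPKM, and *Tssc4* had 26.2, 20.1, and 21.2 FPKM. These 3 lie in the same region of chromosome 7 as *Cdkn1c* and *Phlda2*. *Copg2*, described above with *Mest*, was the fourth highest. The genes that passed 3 counts in no library were the insulin gene *Ins2* and the organic cation transporter *Slc22a2*, both at 0, and *Dio3*. They lie next to *Igf2*, *Igf2r*, and the *Dlk1*-*Dio3* members. Of the 15 neighbours tested, the counts of 5 varied between the libraries (33.3%, beside 47.2% of all genes tested).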

How the data were processed

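The deposited data are the authors' raw counts of reads for each gene, not normalized, in 1 table with Ensembl identifiers, positions, and gene lengths. Per the paper's methods, paired-end reads were mapped to GRCm38, and the submitters' processing notes list HISAT2 2.0.5. The counting program and its strand setting are not given in the sources used here. The table's 3 count columns named for AF_SCs match no sample and were not used. The 317 rows without a gene name (0.165% to 0.182% of counts) were left out.

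FPKM used the table's gene length and the total on named genes. TMM and DESeq2 library sizes came from R 4.3.3, edgeR 4.0.16, and DESeq2 1.42.0, and the rest was done in Python 3.11.15 with pandas 2.3.3 and NumPy 2.4.6, with SciPy 1.17.1 for tests and matplotlib 3.10.9 for figures. Replicate 1 was set against the others with a pseudocount of 0.5 counts. The chi-square step was checked on simulated data. Ratios of pooled counts carry exact 95% binomial intervals, which, like the 3-count limit, cover counting error only, since PCR reads cannot be traced to single molecules. Uniqueness (50-base words on either strand of all transcripts) and exons came from GENCODE M21, in which 33 of 34 members have the table's coordinates. Named are all members and, of each list of regulators and neighbours, the 4 highest, those at or under 3 counts throughout, and the parents of retrogenes. The members were chosen by symbol and not by level, but they and the lists were chosen with earlier results of these data known.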

Additional observations from a re-analysis of the deposited data

How the results depend on the processing

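The numbers of detected genes, of genes at 1 FPKM or more, and of genes whose counts varied stayed within 1.5 times of the reported values under the alternatives tried, except that without replicate 1 the counts of 1 gene varied in place of 18. Leaving out a replicate gave 1 to 19 such genes, and the plain total count gave 20. Of the mean levels, the 68 values under another library size lay within 1 SD. This says little, as the TMM factors were only 0.968 to 1.024 and *Dlk1* and *Rtl1* had 0 counts. Without replicate 1 the mean of *Nnat* was 0.267 FPKM in place of 0.178. Without division by length, log2 level ratios went to 2.75 from 1.54 for *Igf2* to *H19*, to 5.15 from 3.48 for *Meg3* to *Dlk1*, to 11.17 from 9.80 for *Igf2r* to *Airn*, to 5.36 from 10.87 for *Cdkn1c* to *Kcnq1ot1*, and to 7.36 from 6.61 for *Peg3* to *Zim1*, as the lengths of these genes differ. With 1 replicate left out, *Meg3* to *Dlk1* ranged from 3.35 to 3.67 and *Igf2r* to *Airn* from 7.43 to 9.48. For 7 further pairs, and for the count by promoter window, the alternatives were chosen after seeing the data. Without division by length the ratios turned to -0.58 for *Mcts2* to *H13* and -0.28 for *Mcts2* to *Mcts1*, and 4 other pairs moved in size and not in direction. No paired analysis was possible because all libraries belong to 1 group. Depth limits the genes near 3 counts, *H19*, *Airn*, *Dlk1*, *Rtl1*, and *Nnat*, most, and the spread rests on 3 libraries, of which 1 stands apart.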

Other observations

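Further transcripts of the imprinted regions were chosen after their values were seen. *Snhg14*, *Gm38393*, *Gnasas1*, and *B830012L14Rik* passed 3 counts in every library, and *Igf2os* and *Mir453* passed it in some. *Snurf*, *Gm49394*, *Gm44732*, and *Mir675* passed it in none, and *Mir675*, which lies inside *H19*, had 0 counts throughout. *Snhg14*, the long paternal transcript that runs from *Snrpn* across *Ube3a* on the opposite strand, had 1466, 1297, and 1146 counts, or 3.11, 2.65, and 2.43 FPKM in replicates 1, 2, and 3. *Snhg14* was highest in replicate 1, where *Ube3a*, a gene of 20626 bases, was lowest. Set against replicates 2 and 3, *Ube3a* in replicate 1 lay at -0.25 on the log2 scale. With the length trend taken out it lay at 0.28, so its low level there did not go beyond that trend. A link between the levels of *Snhg14* and *Ube3a* was not tested. *Gm38393*, which overlaps *Snrpn* on the same strand, had 235, 784, and 700 counts, a lower count in replicate 1, while *Snrpn* had its highest count there. *Gnasas1*, antisense to *Gnas*, had 28, 38, and 42 counts. *Igf2os*, antisense to *Igf2*, had 17, 1, and 12 counts, with replicate 2 the lowest, and its counts varied between replicates 2 and 3 as well (adjusted p of the chi-square test 0.0266). *Mir453*, the row for the hairpin of miR-453 inside *Mirg*, had 2, 6, and 8 counts.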
